A study of Homo sapiens with 8 samples.

Results

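HP1b and HP1a were followed at 10 protein-coding genes of 3 genomic neighbourhoods of MCF10A cells. The genes were LMNA and MEF2D on chromosome 1, ARFGEF2, B4GALT5, CEBPB, PTPN1 and ADNP on chromosome 20, and ABLIM3, CSNK1A1 and PPARGC1B on chromosome 5. They were 10 of 19974 annotated protein-coding genes, and they were listed because their neighbourhoods (chr1:156000001-157000000, chr20:49000001-51000000 and chr5:149000001-150000000 of hg38, called the LMNA, CEBPB and PPARGC1B windows) had lower relative HP1b coverage in HP1a knockdown than in wild type. The HP1b values in that contrast therefore chose the genes and are given below as a description, with no test. The HP1a libraries took no part in the choice.

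MCF10A is an established human cell line of immortal, non-tumorigenic breast epithelium. The series holds 8 chromatin immunoprecipitation sequencing (ChIP-seq) libraries in 4 groups of 2 replicates, given as lists of broad peaks. The groups were HP1b ChIP in HP1a knockdown cells, HP1b ChIP in wild-type cells, HP1a ChIP in HP1b knockdown cells and HP1a ChIP in wild-type cells, all without treatment. The sources used here do not give how the knockdowns were made or whether each was 1 clone. The labels do not say that replicates were separate cultures, so p-values measure only the spread between these libraries, which may be technical. A peak list cannot show the identity of the cells, and it cannot tell a protein bound in fewer cells from less protein per cell.

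HP1a (encoded by CBX5) and HP1b (encoded by CBX1) are paralogous chromatin proteins that bind methylated lysine 9 of histone H3 through a chromodomain and pair with themselves and each other through a chromoshadow domain. They are best known from heterochromatin, and they are also found over transcribed genes. LMNA encodes lamins A and C of the nuclear lamina, which lies against much of the heterochromatin at the nuclear edge, and ADNP encodes a zinc finger and homeobox protein that works with the remodeller CHD4 and HP1 proteins in the ChAHP complex.

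The lists differed in length. On chromosomes 1 to 22 and X, HP1b in HP1a knockdown gave 159536 and 225991 peaks, against 239563 and 240090 in wild type, so replicate 1 of the knockdown was the shortest HP1b list. HP1a in HP1b knockdown gave 19638 and 19092 peaks, against 134058 and 115564 in wild type. For this reason peak-covered bases are also given relative to the library, as covered bases per Mb of all peak-covered bases (relative coverage). The lists hold no read counts, so depth is unknown and no counting interval could be set, and a gene without a peak is a gene where none was listed, not one shown to lack the protein.

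Promoter sequences of RefSeq (GRCh38.p14, 250 bases before to 50 bases after a start) were found for all 10 genes, 16 windows in all. The following 4 are shown because they contrast promoters with and without an HP1 peak. Capitals mark CG dinucleotides, which read the same on both strands, and 96.1% of all 34961 promoter windows hold at least 1 CG. The first pair, the LMNA promoter at chr1:156082323-156082622 (plus strand, 23 CG) and the CEBPB promoter at chr20:50190580-50190879 (plus strand, 43 CG), had no peak in any of the 8 libraries.
LMNA: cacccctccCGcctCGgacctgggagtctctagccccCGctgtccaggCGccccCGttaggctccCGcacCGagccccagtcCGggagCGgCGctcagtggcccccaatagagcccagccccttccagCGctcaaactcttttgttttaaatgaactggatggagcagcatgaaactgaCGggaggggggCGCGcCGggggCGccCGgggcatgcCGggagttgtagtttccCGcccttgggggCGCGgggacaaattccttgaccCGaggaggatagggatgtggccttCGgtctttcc
CEBPB: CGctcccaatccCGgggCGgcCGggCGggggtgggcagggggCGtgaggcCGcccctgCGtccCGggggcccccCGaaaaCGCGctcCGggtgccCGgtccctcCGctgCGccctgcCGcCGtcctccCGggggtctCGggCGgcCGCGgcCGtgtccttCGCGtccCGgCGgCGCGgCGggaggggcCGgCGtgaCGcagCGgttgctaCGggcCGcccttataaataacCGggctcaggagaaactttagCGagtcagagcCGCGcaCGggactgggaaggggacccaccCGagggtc
The second pair are starts inside a gene that had peaks in wild type only. They are the MEF2D start at chr1:156490638-156490937 (minus strand, 5 CG), 10.1 kb from the 5′ end of the gene, and the PPARGC1B start at chr5:149771690-149771989 (plus strand, 3 CG), 41.6 kb from the 5′ end.
MEF2D: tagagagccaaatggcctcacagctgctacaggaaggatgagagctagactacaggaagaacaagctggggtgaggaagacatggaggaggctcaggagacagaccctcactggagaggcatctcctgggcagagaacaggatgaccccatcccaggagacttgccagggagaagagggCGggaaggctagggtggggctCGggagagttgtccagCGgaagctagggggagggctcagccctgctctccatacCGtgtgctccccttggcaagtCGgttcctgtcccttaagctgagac
PPARGC1B: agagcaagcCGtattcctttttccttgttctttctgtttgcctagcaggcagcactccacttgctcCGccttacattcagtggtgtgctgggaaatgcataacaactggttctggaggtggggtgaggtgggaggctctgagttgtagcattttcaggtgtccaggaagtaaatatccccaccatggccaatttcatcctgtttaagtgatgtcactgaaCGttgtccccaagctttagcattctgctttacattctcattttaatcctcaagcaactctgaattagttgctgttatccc

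Both sequences of the second pair were met by a peak in wild-type HP1b replicate 2 and in 1 wild-type HP1a library (replicate 1 at MEF2D, replicate 2 at PPARGC1B), and by none in either knockdown. The first ABLIM3 promoter, with 24 CG, was met by a peak in wild-type HP1a replicate 1. The other 13 promoter windows of the 10 genes had no peak in any library. Among them were the ADNP windows with 11 and 5 CG and a CSNK1A1 window with 10 CG. CG number thus did not separate the windows with a peak from those without. Over all promoters the median was 14 CG. At or above this median, HP1b peaks met 0.687 and 1.95% of the windows in HP1a knockdown and 1.46 and 2.03% in wild type. Below the median they met 4.496 and 7.65% in the knockdown and 8.06 and 8.92% in wild type. Promoters without an HP1b peak were thus the common case in these lists on both sides of the median, including CG-rich ones such as those of LMNA and CEBPB.

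HP1b covered little of these genes in HP1a knockdown. With 1 kb added on each side the 10 genes span 735.1 kb, and HP1b peaks covered 0.541 and 0.504% of it in HP1a knockdown, against 4.48 and 6.89% in wild type. These were 6 and 10 peaks in the knockdown and 48 and 77 peaks in wild type. Over all protein-coding genes HP1b peaks covered 3.11 and 4.71% in the knockdown and 4.63 and 4.84% in wild type. In 7 of the 10 genes both knockdown libraries were below both wild-type libraries, the pattern seen at 32.5% of all genes with an HP1b peak in any of these libraries. None was above in both, against 10.8% of those genes. Because this contrast chose the genes, nothing is read from these counts.

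The other 3 genes went against the description of the set. CEBPB, ADNP and CSNK1A1 had no HP1b peak in any of the 4 HP1b libraries, so a loss of HP1b holds for the neighbourhoods and for 7 of the genes, and not for these 3 gene bodies. Of the 7 genes with an HP1b peak in both wild-type libraries, LMNA, MEF2D and PTPN1 had none in either knockdown library, a pattern seen at 14.2% of the 11100 genes with peaks in both wild-type libraries. ARFGEF2, B4GALT5 and PPARGC1B had peaks in 1 knockdown library, and ABLIM3 had them in both.

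**Figure D1:**
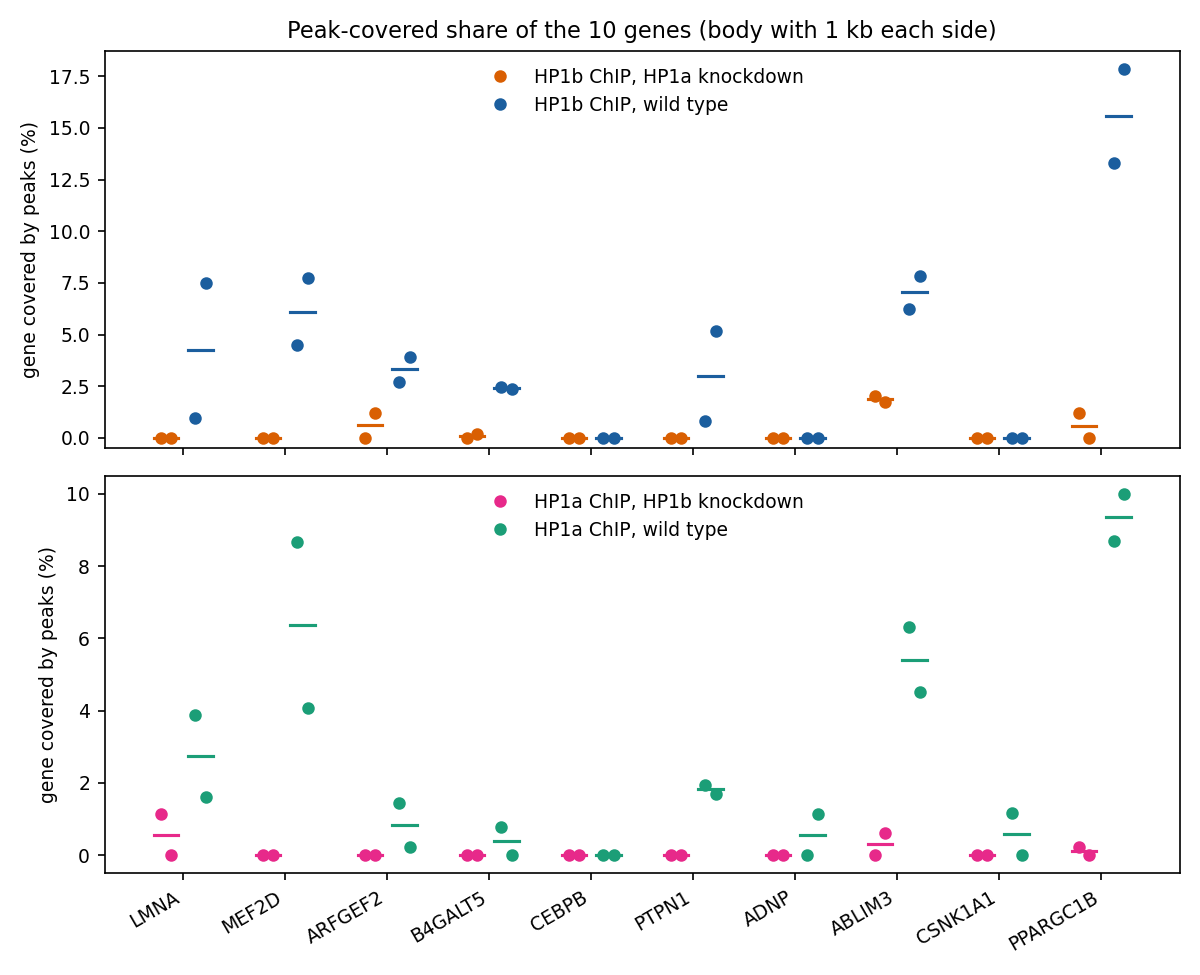
Share of each gene, with 1 kb on each side, covered by peaks in percent, for HP1b (HP1a knockdown and wild type) and for HP1a (HP1b knockdown and wild type); each point is 1 library and each short line a mean of 2. PPARGC1B stands highest for wild-type HP1b at 13.3 and 17.8%, while CEBPB is at 0 in all 8 libraries.

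PPARGC1B, which encodes the coactivator PGC-1β of oxidative metabolism and mitochondrial genes, had the highest HP1b share of the 10 genes in wild type. It lies at chr5:149730310-149857959 on the plus strand. HP1b peaks covered 1.19 and 0% of it in HP1a knockdown, from 3 and 0 peaks, and 13.3 and 17.8% in wild type, from 21 and 29 peaks. Both knockdown libraries were far below both wild-type libraries, a log2 difference in relative coverage of −4.51. The median over the 13101 genes fitted was −0.48. This contrast chose the window of the gene, so nothing is read from the distance to that median. Knockdown replicate 2 was at 0, so the value of −4.51 depends on the pseudocount added before taking logs. Along the gene cut into 4 equal parts, the second from the 5′ end had HP1b over 2.62 and 0% in the knockdown and over 36.8 and 37.4% in wild type. That part holds the internal start printed above.

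For wild-type HP1b, the share of covered bases found in both replicates was also the highest of the set in PPARGC1B. This share can rise with coverage alone, and PPARGC1B had the highest wild-type HP1b coverage of the set. Overlap was not compared with random placement, so no gene is ranked here as the most repeatable for its coverage. The 2 wild-type replicates shared 7078 bases there, 21.3% of the bases covered in either, and 12 of the 21 peaks of replicate 1 and 14 of the 29 peaks of replicate 2 met a peak of the other. In LMNA, B4GALT5 and PTPN1 the wild-type replicates shared no base. Of the 3 knockdown peaks in PPARGC1B, 1 lay on bases shared by the wild-type replicates. No other gene of the set had a knockdown peak on such bases.

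ABLIM3, which encodes an actin-binding LIM protein, had the highest HP1b share of the 10 genes in HP1a knockdown. It lies at chr5:149141493-149260542 on the plus strand. HP1b peaks covered 2.01 and 1.75% of it in HP1a knockdown, from 3 and 6 peaks, and 6.25 and 7.85% in wild type, from 12 and 19 peaks. The knockdown libraries lay below the wild-type libraries, with a log2 difference of −1.60. The difference was uneven along the gene. Of 4 equal parts, the last was covered at 0 and 2.75% in the knockdown and at 18.6 and 13.9% in wild type, whereas the first was covered at 4.49 and 1.67% in the knockdown and at 1.66 and 2.25% in wild type.

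Within ABLIM3 a stretch at chr5:149187853-149188804, about 46.8 kb from the 5′ end, carried an HP1b peak in both HP1a knockdown libraries and in neither wild-type HP1b library. It was singled out after its values were seen. The knockdown peaks had a fold enrichment of 2.60 and 3.15 and shared 773 bases, and the second had the highest −log10 q of all knockdown peaks in the set, 3.39. The nearest wild-type HP1b peaks were 1.59 and 6.58 kb away. HP1a in HP1b knockdown replicate 2 also had a peak there, with a fold enrichment of 3.02, while neither wild-type HP1a library did. A further pair of knockdown HP1b peaks met over 71 bases near the 5′ end of the gene, at a place that also had a peak in wild-type HP1b replicate 2. Under a stricter requirement, a −log10 q of at least 2, the HP1b difference of ABLIM3 turned round to 0.92, and with a −log10 p of at least 4 it was 0.72.

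**Figure D2:**
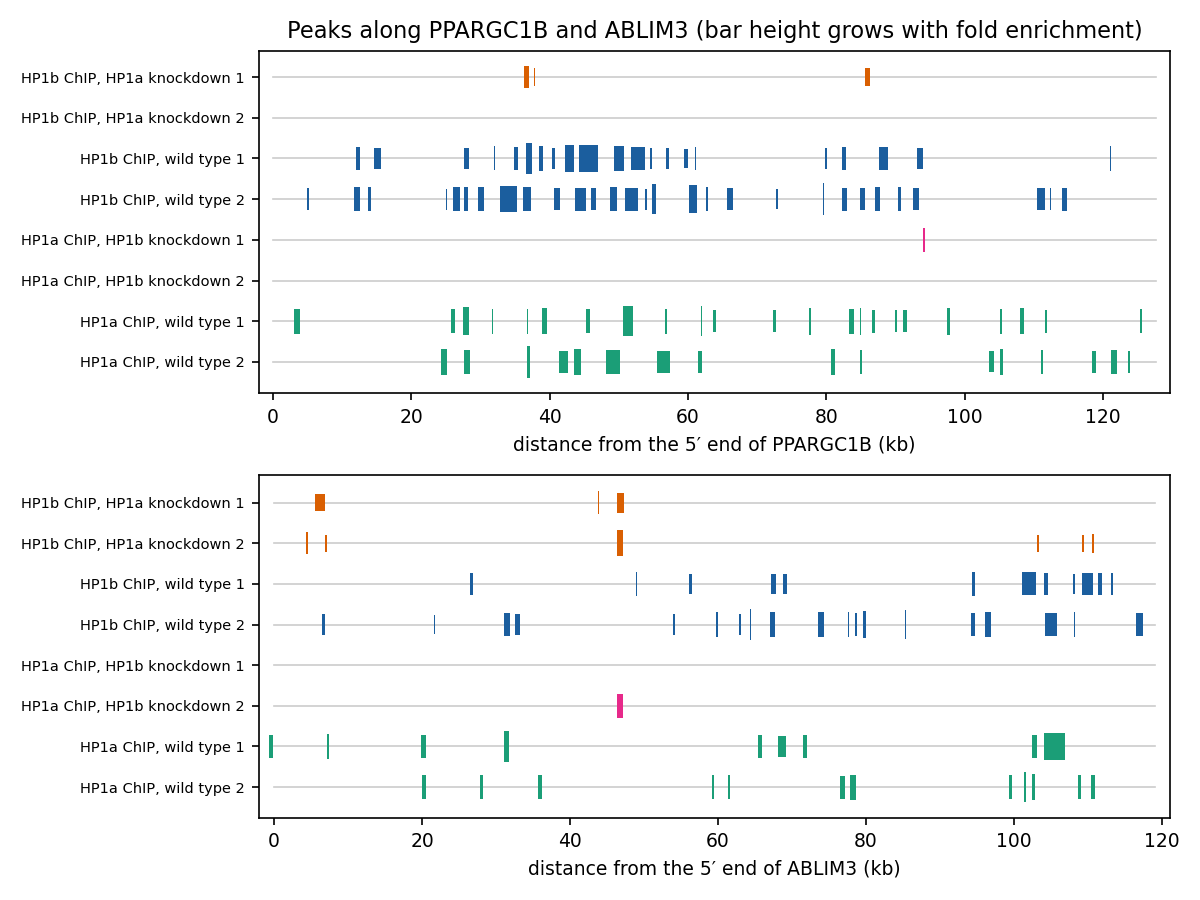
Positions of the listed peaks in PPARGC1B and ABLIM3, by distance in kb from the 5′ end of the gene, with 1 row per library, the knockdown rows of each protein above its wild-type rows, and bar height growing with fold enrichment. PPARGC1B has 21 and 29 wild-type HP1b peaks and 3 and 0 in HP1a knockdown, and ABLIM3 has knockdown peaks near 46.8 kb.

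LMNA lies at chr1:156082573-156140081 on the plus strand. It had no HP1b peak in either HP1a knockdown library, and in wild type HP1b covered 0.97 and 7.52% of it, from 1 and 5 peaks. The wild-type replicates thus differed widely from each other, and their peaks did not overlap. The single peak of replicate 1 lay 30.3 kb from the 5′ end, at chr1:156112603-156113180, with a fold enrichment of 3.504. The nearest HP1b peak to the gene was 43.9 and 26.1 kb away in the knockdown.

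MEF2D encodes a MADS-box transcription factor of muscle, neuronal and immune genes and lies at chr1:156463727-156500775 on the minus strand. It too had no HP1b peak in the knockdown, and wild-type HP1b covered 4.502 and 7.72% of it, from 3 and 5 peaks. The wild-type replicates shared 590 bases, 14.1% of those covered in either. Of 4 equal parts of the gene, the second from the 5′ end had HP1b over none of its bases in the knockdown and over 8.12 and 18.8% in wild type.

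On chromosome 20, PTPN1, which encodes the phosphatase PTP1B that acts on the insulin receptor, lies at chr20:50510383-50585241 on the plus strand. HP1b covered none of it in HP1a knockdown and 0.81 and 5.17% in wild type, from 2 and 6 peaks. ARFGEF2 encodes an exchange factor for ARF proteins in vesicle transport and lies at chr20:48921711-49036693 on the plus strand, mostly below the 49 Mb bound of the neighbourhood. HP1b covered 0 and 1.21% of it in the knockdown and 2.69 and 3.94% in wild type, a log2 difference of −2.47. It was −1.31 without HP1a knockdown replicate 1 and −3.61 without replicate 2. As replicate 1 was at 0, the difference of −2.47 depends on the pseudocount. B4GALT5, a β-1,4-galactosyltransferase gene at chr20:49632945-49713878 on the minus strand, had HP1b over 0 and 0.21% in the knockdown and 2.45 and 2.36% in wild type. In each of these 3 genes the knockdown libraries lay below the wild-type libraries.

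The 3 genes without HP1b peaks had them nearby in wild type. CEBPB, a short gene at chr20:50190583-50192690 on the plus strand, encodes the bZIP factor C/EBPβ. Its nearest HP1b peak was 109.2 and 9.97 kb away in HP1a knockdown and 6.62 and 3.77 kb away in wild type. With 100 kb on each side, HP1b covered 0 and 2.25% in the knockdown and 3.56 and 7.24% in wild type. ADNP (chr20:50888918-50931437, minus strand) had its nearest HP1b peak 33.7 and 3.65 kb away in the knockdown and 3.71 and 8.20 kb away in wild type, so these distances overlapped.

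The surrounding coverage of ADNP did not overlap. With 100 kb on each side it was 0.284 and 1.28% in the knockdown and 5.89 and 5.69% in wild type. CSNK1A1 (chr5:149492982-149551439, minus strand) encodes casein kinase 1α, which phosphorylates β-catenin. Its nearest HP1b peak was 6.67 and 3.56 kb away in the knockdown and 13.0 and 1.82 kb away in wild type, and with 100 kb on each side HP1b covered 0.872 and 2.26% in the knockdown and 5.89 and 11.6% in wild type. In wild type, all 3 genes thus had gene bodies without HP1b peaks and surroundings with them, while in knockdown replicate 1 the surroundings of CEBPB had none either.

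Peaks in the 10 genes spanned a narrow range of fold enrichment over the local background, a ratio given by the authors' lists. The 16 peaks of HP1b in HP1a knockdown had a fold enrichment of 2.23 to 3.15 with a median of 2.56, and the 125 wild-type HP1b peaks had 2.52 to 3.73 with a median of 2.83. The knockdown peaks also had a lower median over whole lists, 2.79 in both libraries against 2.93 and 3.03 in wild type. A −log10 q of at least 2 was reached by 3 of the 16 knockdown peaks, all in ABLIM3, and by 5 of the 125 wild-type peaks. With a −log10 q of at least 2, 2 genes were lower for HP1b in the knockdown, and with a −log10 p of at least 4, 3 genes were, against 7 in the full lists. With the q limit the 2 were LMNA and PPARGC1B. Only ABLIM3 besides them kept an HP1b peak, so the other genes could not be compared. With equal numbers of peaks from each HP1b library the count was 7 again.

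HP1b was also lower over the neighbourhoods as a whole. The windows were chosen for this difference, so their values and tile counts are a description and nothing is read from them. Tiles were not counted over the rest of the genome. In the LMNA window HP1b covered 0.467 and 2.10% in HP1a knockdown and 5.87 and 11.5% in wild type. In the CEBPB window it covered 0.658 and 1.51% in the knockdown and 5.99 and 7.62% in wild type, and in the PPARGC1B window 2.004 and 3.62% in the knockdown and 9.22 and 12.5% in wild type. Of 80 tiles of 50 kb in the windows, 66 had both knockdown libraries below both wild-type libraries and 1 had both above. Bases outside protein-coding genes were included: between genes of the PPARGC1B window HP1b covered 4.04 and 7.32% in the knockdown and 12.8 and 17.9% in wild type.

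**Figure D3:**
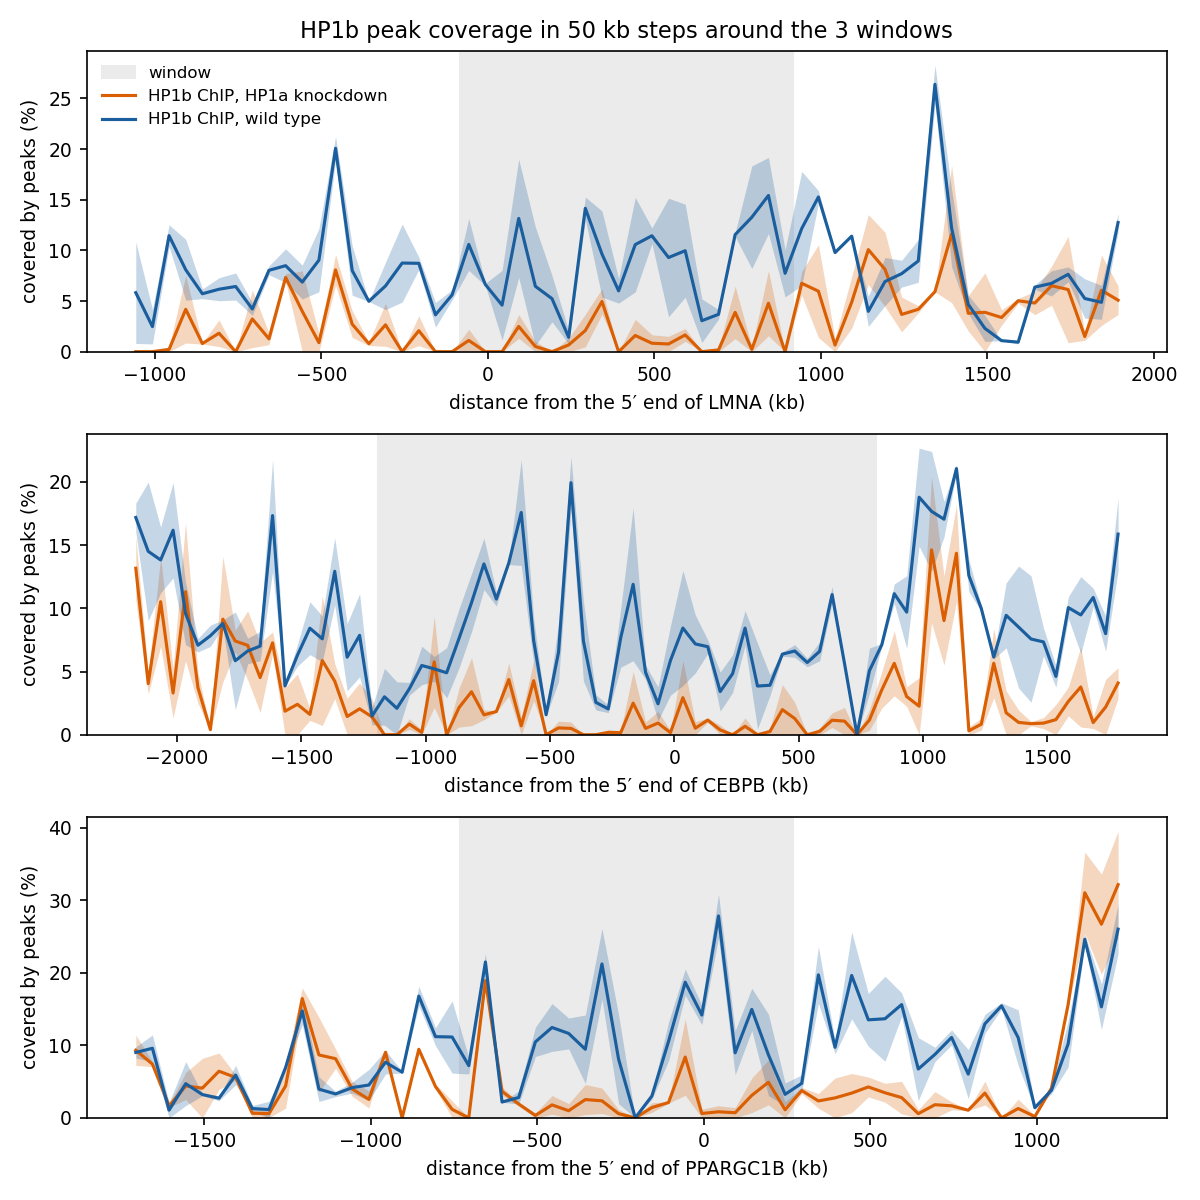
Share in percent of 50 kb tiles covered by HP1b peaks, by distance in kb from the 5′ end of LMNA, CEBPB and PPARGC1B, in HP1a knockdown and wild type; lines are means of 2 libraries, bands span both libraries and grey marks the windows. In 66 of the 80 tiles inside the windows both knockdown libraries lie below both wild-type libraries. The windows were chosen for this difference.

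The log2 differences of HP1b relative coverage per 1 Mb bin were −1.68 in the LMNA window, −1.48 and −1.49 in the first and second bin of the CEBPB window, and −1.34 in the PPARGC1B window. Among 13101 genes fitted for HP1b, limma called 0 lower and 0 higher. With a replicate block it called 319 genes lower and 132 higher. Among 2891 bins fitted, 12.0% were called lower and 7.06% higher for HP1b by limma, an account of the background only. The number called lower was 348, and between 20 and 839 with a library left out. The window bins were chosen for low values, so their distance from the flanks is a description. The bins next to the windows are not part of them, but the bin below the CEBPB window holds most of ARFGEF2. The values next to the windows were −1.23 and −0.45 below and above the LMNA window, −0.62 and −1.11 around the CEBPB window, and −0.06 and −0.52 around the PPARGC1B window. The median over the 20 bins within 10 Mb on both sides was −0.35 at LMNA, −0.36 at CEBPB and 0.01 at PPARGC1B. Of these 20 bins, 14, 13 and 9 had both knockdown libraries below both wild-type libraries. This pattern was not counted over all bins.

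**Figure D4:**
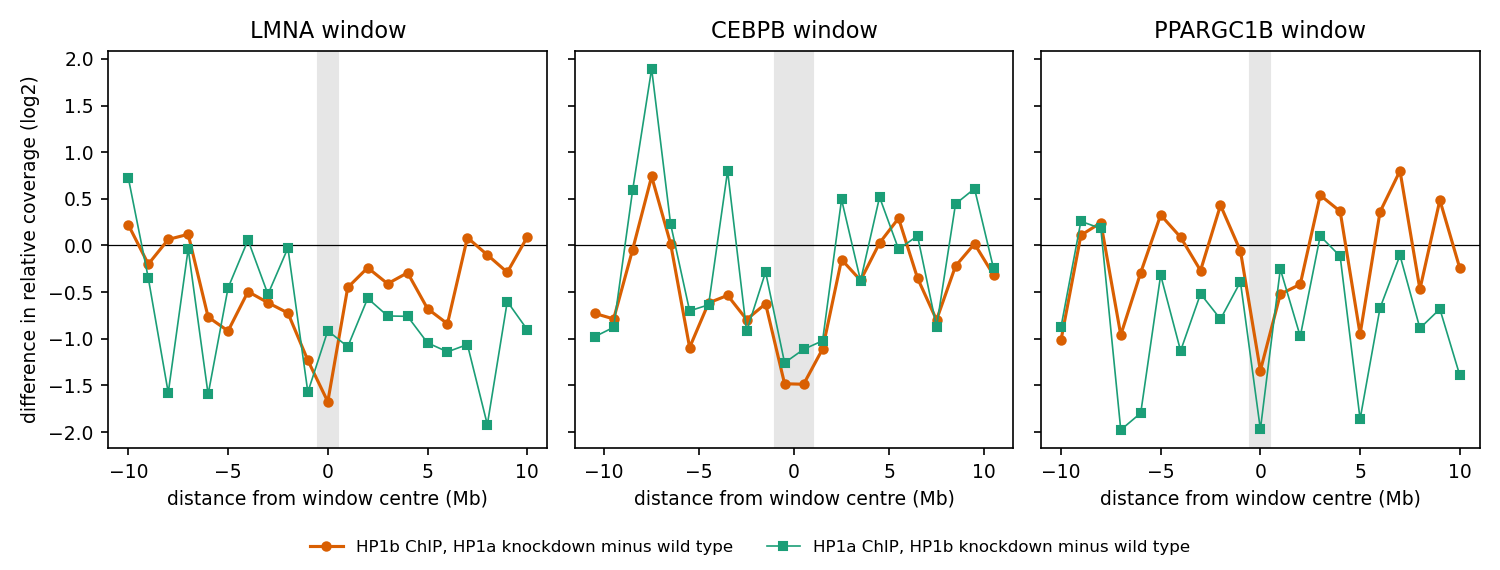
Log2 difference in relative coverage, knockdown minus wild type, of 1 Mb bins within 10 Mb of each window (grey), by distance in Mb from its centre, for HP1b and HP1a. For HP1b the window bins lie between −1.68 and −1.34, and the flanking medians between −0.36 and 0.01. The windows were chosen for low HP1b values.

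The question of the second contrast was whether HP1a at the same genes differed when HP1b was knocked down, in libraries that did not choose them. HP1a peaks covered 0.132 and 0.0997% of the 735.1 kb in HP1b knockdown, from 2 and 1 peaks, and 3.96 and 3.14% in wild type, from 51 and 36 peaks. Over all genes the shares were 0.310 and 0.284% in the knockdown and 2.25 and 1.83% in wild type. HP1a fell past the threshold of adjusted p 0.05 at MEF2D and PTPN1 in limma fitted on log2 relative coverage over 8878 genes. Over all genes 28.9% fell and 1.79% rose, and no gene of the set rose. A count of 2 among the 6 genes fitted is close to that background and is not a result about the set.

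MEF2D was covered by HP1a at 0 and 0% in HP1b knockdown and at 8.67 and 4.08% in wild type, a log2 change of −3.10 (SE 0.50, limma adjusted p 0.0284). PTPN1 was covered at 0 and 0% in the knockdown and at 1.95 and 1.69% in wild type, a log2 change of −2.46 (SE 0.30, limma adjusted p 0.0248). Both genes were at 0 in both knockdown libraries, so these fitted values depend on the pseudocount and are no bound on the change. Both genes passed the filter of a peak in at least 2 of 4 libraries through wild type alone, and so had to differ. Of the 2567 genes called lower, 2529 (98.5%) were likewise at 0 in both knockdown libraries. With either wild-type HP1a replicate left out, MEF2D and PTPN1 could not be fitted. Both calls ended without the filter, with a 4 times larger pseudocount, and with a replicate block (adjusted p 0.0766 each).

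At the 4 other fitted genes no change passed the threshold. PPARGC1B was covered at 0.22 and 0% in HP1b knockdown and at 8.69 and 9.997% in wild type, with 1 and 0 peaks against 23 and 16. Its log2 change was −3.91 (SE 1.22, limma adjusted p 0.106), and −0.24 with equal numbers of peaks from each HP1a library. ABLIM3 was covered at 0 and 0.61% in the knockdown and at 6.30 and 4.52% in wild type, a log2 change of −2.41 (SE 1.67, limma adjusted p 0.396), and −0.096 with equal numbers of peaks. In both genes each knockdown library was below each wild-type library. The values turned on single knockdown libraries, each of which then stands alone and is assumed to vary like the others. ABLIM3 was at −0.38 without HP1b knockdown replicate 1 and at −4.62 (limma adjusted p 7.35e-08) without replicate 2. PPARGC1B was at −5.52 without replicate 1 and at −2.50 without replicate 2, and was called lower in both cases. Both genes were also called lower without scaling.

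ARFGEF2 was covered at 0 and 0% in the knockdown and at 1.44 and 0.23% in wild type, a log2 change of −1.77 (SE 0.67, limma adjusted p 0.150), and it too passed the filter through wild type alone. LMNA was covered at 1.14 and 0% in the knockdown and at 3.89 and 1.62% in wild type, a log2 change of −0.58 (SE 1.65, limma adjusted p 0.847). Its relative coverage was 68.8 and 0 bases per Mb in the knockdown and 33.1 and 16.0 in wild type, so the groups overlapped, and the change was −2.72 (limma adjusted p 0.0363) without HP1b knockdown replicate 1 and turned round to 1.41 without replicate 2. The single LMNA peak in the knockdown lay 4.19 kb from the 5′ end, and the nearest wild-type HP1a peak of the gene, 5.28 kb from that end, did not overlap it.

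B4GALT5, ADNP and CSNK1A1 had an HP1a peak in 1 wild-type library each and none in the knockdown, so they were not fitted, and CEBPB had no HP1a peak. The median log2 change of the 6 fitted genes was −2.44, against −1.23 over all 8878 genes. Of the 6, 3 were fitted through wild type alone, so nothing is read from that median. In 5 genes both knockdown libraries were below both wild-type libraries in relative coverage (34.8% of all genes with an HP1a peak), and in none were both above (6.19%). All of MEF2D, PTPN1 and ARFGEF2 had HP1a peaks in both wild-type libraries and in no knockdown library, as did 47.0% of the 7945 genes with peaks in both wild-type libraries. With the scaling left out the median over all genes was −2.15, and 4593 genes fell and 48 rose, against 2567 and 159 with it.

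Among the 1 Mb bins, 7.54% of 2878 fell for HP1a and 7.26% rose, 217 and 209 bins, against 2735 and 3 without scaling. The bin of the PPARGC1B window fell, with a log2 change of −1.97 (SE 0.24, limma adjusted p 0.00424). The change was −0.22 (adjusted p 0.853) with equal numbers of peaks per library, and it was no longer called with a −log10 q of at least 2 (adjusted p 0.124) or a −log10 p of at least 4 (adjusted p 0.0857). The bins of the CEBPB window had log2 values of −1.26 and −1.11 (limma adjusted p 0.130 and 0.158) and the bin of the LMNA window −0.91 (adjusted p 0.1003), none of them called. With a replicate block the LMNA bin (adjusted p 0.0384) and the first CEBPB bin (adjusted p 0.0443) were called lower, and that CEBPB bin also with a −log10 q of at least 2 (adjusted p 0.0161). Without HP1b knockdown replicate 1 all 3 of these bins were called lower, with log2 values of −1.29 to −1.95, in a fit that assumes the lone knockdown library to vary like the others, and without scaling they were called lower too. Without HP1b knockdown replicate 2 the LMNA bin was called lower, at −0.51 (adjusted p 0.0428). With equal numbers of peaks per library the LMNA bin was higher in HP1b knockdown, by 2.18 (adjusted p 0.0224).

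In wild type both proteins had peaks in each of the 7 genes with HP1b. HP1b covered 13.3 and 17.8% of PPARGC1B, and HP1a covered 8.69 and 9.997% of it. HP1b covered 6.25 and 7.85% of ABLIM3 and HP1a 6.30 and 4.52%, and the ranges also overlapped at LMNA, MEF2D and PTPN1. These shares are not scaled, and the wild-type HP1b lists were the longer. In relative coverage HP1a stood above HP1b at PPARGC1B (161 and 214 against 109 and 147 bases per Mb). The same held at ABLIM3 (109 and 90.6 against 47.9 and 60.5) and MEF2D (48.5 and 26.4 against 11.1 and 19.2). B4GALT5 went the other way (9.15 and 0 against 12.8 and 12.5), and LMNA, PTPN1 and ARFGEF2 overlapped. Bases covered in all 4 wild-type libraries were found in PPARGC1B alone among the 10 genes, 625 bases. Within either protein the replicates also shared few bases.

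The other 66 protein-coding genes of the windows were counted in the same way. HP1b was lower in both HP1a knockdown libraries at 36 (32.5% over all genes with an HP1b peak), overlapped at 21, was higher at none and was not listed at 9. The 32.5% leaves out genes without a peak, whereas the 66 include those 9. Because this contrast chose the windows, nothing is read from these HP1b counts. HP1a fell at 15 of the 34 fitted and rose at none, with a median log2 change of −1.75, against 28.9% falls and a median of −1.23 over all genes fitted. All 15 were at 0 in both HP1b knockdown libraries, so they were fitted through wild type alone and had to differ. Nothing is read from this count or this median. Among those with the largest wild-type HP1b share were PEAR1, INSRR and TTC24 near LMNA, SNAI1 and PTGIS near CEBPB, and LOC124901104, IL17B and PDE6A near PPARGC1B. In all of these but LOC124901104 both HP1a knockdown libraries were below both wild-type libraries for HP1b. The genes were picked for a high wild-type share, which favours lower knockdown values, so nothing is read from this either. LOC124901104 was covered at 0 and 0% in the knockdown and 0 and 45.0% in wild type.

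SNAI1, the gene of the epithelial to mesenchymal transition factor Snail, was covered by HP1b at 0 and 0% in HP1a knockdown and at 3.87 and 22.5% in wild type. PTGIS, the gene of prostacyclin synthase, was covered at 2.31 and 4.28% in the knockdown and at 11.0 and 13.4% in wild type. PEAR1, which encodes a receptor of platelets and endothelium, was covered at 3.16 and 7.04% in the knockdown and at 25.1 and 19.8% in wild type. In these 3 genes the HP1b groups did not overlap, as in PPARGC1B. For HP1a, PTGIS was covered at 0 and 0% in HP1b knockdown and at 2.47 and 1.11% in wild type, so it was fitted through wild type alone and had to differ. HP1a covered PEAR1 at 5.04 and 1.87% in HP1b knockdown and at 10.5 and 1.57% in wild type, so these shares overlapped. In relative coverage, which divides by the covered bases of the short knockdown lists, the log2 value of PEAR1 was 1.94 (SE 1.04, limma adjusted p 0.276).

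**Figure D5:**
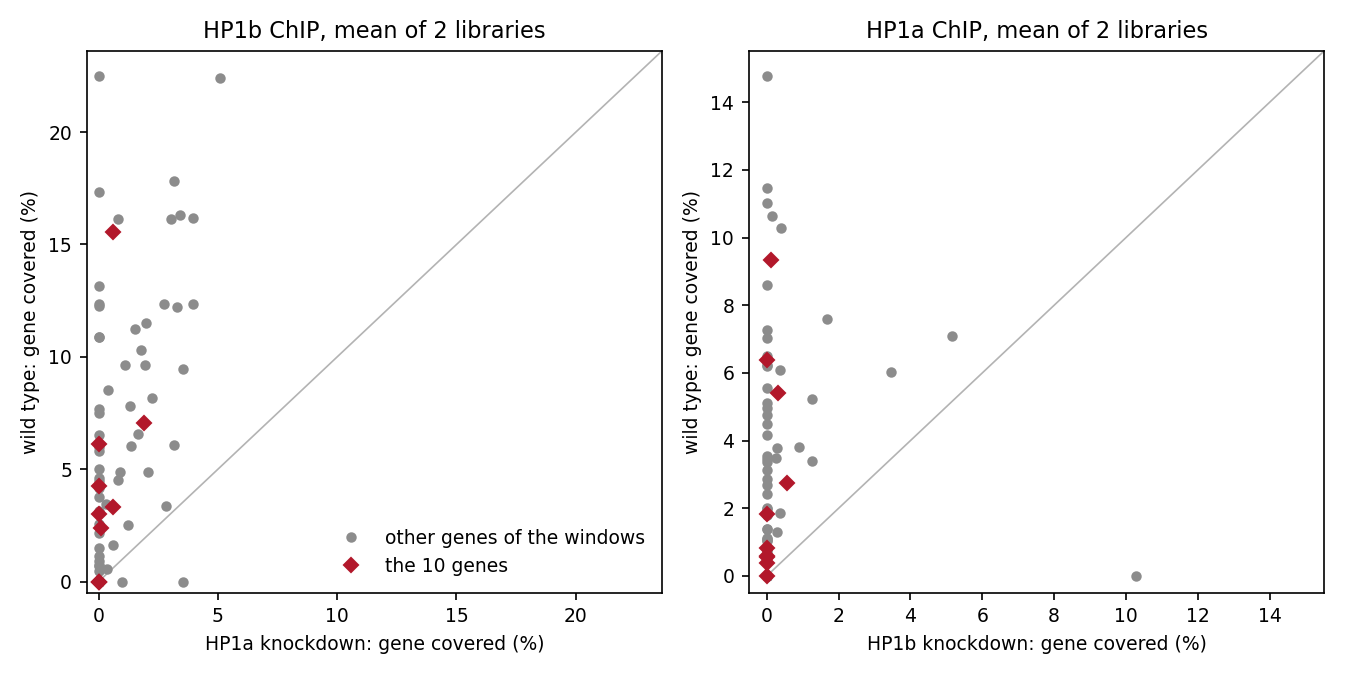
Mean peak-covered share in percent of the protein-coding genes of the 3 windows, knockdown against wild type, for HP1b and HP1a, with the 10 genes marked; each point is 1 gene, means are over 2 libraries, and the line marks equal values. Points left of the line are higher in wild type; the gene far to the right for HP1a is BGLAP, with HP1a over 20.5 and 0% in HP1b knockdown and 0 and 0% in wild type.

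Genes related to the set by family or pathway were read from lists chosen for this purpose, 56 genes in all. HP1b had a peak at 47 of them, and both HP1a knockdown libraries were below both wild-type libraries at 16 and above at 3. Over all genes with an HP1b peak, 32.5% were below and 10.8% above. The 16 of 47 is close to that background and is not a result about these genes. HP1a fell at 10 of the 29 fitted and rose at none, with a median log2 change of −1.58, against −1.23 over all genes fitted. The 10 were LMNB1, LEMD3, TMPO and SYNE2 of the nuclear lamina and envelope, MEF2A, PPARD, NRF1, PTPN11, ARFGEF1 and B4GALT6. All 10 were at 0 in both HP1b knockdown libraries, so they were fitted through wild type alone and had to differ. Nothing is read from this count or this median. The share is near the 28.9% of all genes.

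The paralogs of the main genes did not all follow them. PPARGC1A, which encodes PGC-1α, was covered by HP1b at 3.14 and 3.22% in HP1a knockdown and at 7.10 and 7.47% in wild type and was lower in both knockdown libraries. LMNB2, a B-type lamin gene, went the other way, at 1.88 and 3.17% in the knockdown and 0 and 0% in wild type, and MEF2A was covered at 1.79 and 2.96% in the knockdown and at 1.70 and 0.939% in wild type. CEBPZ was the single listed CEBP gene with an HP1b peak, and like CEBPB the genes CEBPA, CEBPD, CEBPE and CEBPG had none. The listed gene with the largest wild-type HP1b share was SYNE2 for the lamina, MEF2B for the MEF2 family, PPARA for the PGC-1 partners, CBX1 for ChAHP, and PTPN11, ARFGEF3, B4GALT6 and CSNK1G1 for the families they belong to. Of these, MEF2B, PPARA, CBX1, PTPN11, ARFGEF3 and B4GALT6 were lower in both HP1a knockdown libraries, while SYNE2 and CSNK1G1 overlapped. CBX1, the gene of HP1b itself, was covered by HP1b at 0 and 0.524% in the knockdown and at 1.89 and 6.55% in wild type.

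The genes outside the windows whose relative coverage varied most like that of PPARGC1B over the 8 libraries were RIN2, KANK4 and SRPK2 (Pearson r 0.96, 0.96 and 0.94, across libraries of 4 groups, among 10366 genes with a peak in at least 4 libraries). RIN2 was covered by HP1b at 3.05 and 2.99% in HP1a knockdown and at 11.5 and 11.1% in wild type. Among those most like LMNA were ENTPD5 and FMOD (r 0.96 each). CEBPB had no peak in any library, so no likeness could be computed. These correlations describe 8 libraries that differ in antibody, genotype and list length, and the genes were picked from all of those for a high value.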

How the data were processed

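HP1b and HP1a were mapped by ChIP-seq in MCF10A cells, 2 libraries in each of 4 groups, grouped by the titles. Per the submitters' processing notes, the tools were Trimmomatic, Bowtie2, SAMtools and MACS3, with the build hg38. Versions, settings and any input are not stated in the sources used here. For each broad peak, the deposited files give a score, a fold enrichment as a ratio, a −log10 p and a −log10 q. The authors' score lies within 1 of 10 times the −log10 q, and these values are the authors' own for each peak.

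From the lists, overlapping peaks on chromosomes 1 to 22 and X were merged, and covered bases were counted in protein-coding genes with 1 kb on each side (RefSeq, GRCh38.p14) and in bins of 1 Mb, per Mb of all covered bases of the library. Features with a peak in at least 2 of 4 libraries were fitted with limma 3.58.1 in R 4.3.3 (moderated, variance trend) on log2 of this value plus a pseudocount, the 10th percentile of values above 0, with Benjamini-Hochberg adjustment over all features fitted and a threshold of 0.05. The procedure was tested on simulated data. The values simulated for the fit held no zeros, whereas 98.5% of the genes called lower for HP1a were at 0 in both knockdown libraries. That test therefore cannot vouch for those calls. Python 3.11.15 and pandas 2.3.3 were used for counting.

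The genes and lists were chosen with earlier results of these data known. The genes named are the 10, up to 3 other genes per window with the largest mean wild-type HP1b share, 3 genes most like LMNA, CEBPB and PPARGC1B, and those of the related lists with the largest such share, plus a few singled out after their values were seen: those of the related lists that fell for HP1a, LMNB2, MEF2A, PPARGC1A and the ABLIM3 stretch. Alternatives were another pseudocount, no filter, no scaling, the same number of peaks per library, stricter peaks, no flank, a replicate block, all libraries in a single fit, and each library left out. Some genes that the naming rule picks are not reported here. Peak sequences were not used here.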

Additional observations from a re-analysis of the deposited data

How the results depend on the processing

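HP1a calls depended on the processing. Of the genes, 2567 fell and 159 rose with HP1b knocked down. No gene fell or rose by limma with the pseudocount multiplied by 4 (3459 at an unadjusted p under 0.05), without the filter (3381), with equal numbers of peaks per library (864) or with a −log10 p of at least 4 (1668). With a −log10 q of at least 2, 867 fell and 4 rose, and without scaling 4593 fell and 48 rose. All 8 libraries in a single fit gave 364 rises. Leaving out a library gave 2 to 2565 falls and 24 to 1092 rises. Of the bins, 217 fell and 209 rose. The falls were 327 with the larger pseudocount, 2735 without scaling, 115 with equal numbers of peaks, 1653 with the q limit and 0 with the p limit (665 at an unadjusted p under 0.05), and 18 to 1059 with a library left out. The rises were 3 without scaling, 15 with the q limit, 7 with the p limit, and 118 to 511 with a library left out.

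The number of the 10 genes that fell for HP1a was 2, and 0 with the larger pseudocount, without the filter, with equal numbers of peaks, and with the p limit. It was 4 without scaling, and no gene of the 10 that could be fitted rose under any of these settings. With the q limit, 2 wild-type HP1a peaks were left, in different genes, and 0 in the knockdown. No gene of the 10 could thus be fitted there. With a wild-type HP1a library left out, MEF2D and PTPN1 could not be fitted. For HP1b, 7 of the 10 were lower, 2 with the q limit and 3 with the p limit. With the q limit only LMNA, PPARGC1B and ABLIM3 kept an HP1b peak. HP1b bins called lower were 36 in the single fit, 75 without scaling, 516 with equal numbers of peaks, 0 with the q limit (337 at an unadjusted p under 0.05), 67 with the p limit, and 20 to 839 with a library left out. The direction turned round for HP1a at LMNA (−2.72 to 1.41 with a library left out, the highest without HP1b knockdown replicate 2) and at the bin of the LMNA window (2.18 with equal numbers of peaks), and for HP1b at ABLIM3 (0.92 with the q limit, 0.72 with the p limit). The cause of these changes was not tested.

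The labels do not say that equal replicate numbers mark a shared day or culture, and the deviations of equally numbered libraries correlated by 0.052 over the HP1a bins and 0.32 over the HP1b bins. With the replicate block 0 genes fell (4013 at an unadjusted p under 0.05) and 19 rose, 326 bins fell, and 0 of the 10 genes fell. HP1b bins called lower were 657 with the block, against 348. The lists give no depth, so peaks absent from the short HP1a lists of the HP1b knockdown cannot be told apart from peaks under their limit.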
